A study of Brachypodium distachyon with 7 samples.

Results

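The 100 genes described here had more of the histone mark H3K27me3 at the end of a long cold period than in seedlings kept warm, and again after return to warmth. They were taken from 6553 ranked genes of Brachypodium distachyon, a small temperate grass. Both differences were computed as log2(signal + 27.3), with each library set to a median of 0, and a gene's score was the smaller of the 2. The 100 genes with the highest score are called the members. The rule thus used all 3 H3K27me3 libraries. Their H3K27me3 values are given as a description without a test.

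H3K27me3 is the trimethylation of lysine 27 on histone H3, written by Polycomb repressive complex 2 and found over genes that are kept silent. In Arabidopsis thaliana, the best known case of a gain in cold is FLC, a repressor of flowering that acquires the mark during winter cold and holds it when warmth returns. H3K4me3, the trimethylation of lysine 4, lies near the start of genes that are transcribed or ready for transcription, and was profiled in the same series.

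All groups were line ABR1, and the pooled shoots of seedlings were used for chromatin immunoprecipitation and sequencing (ChIP-seq). V30 seedlings grew for 14 days at 24 °C and were then held at 4 °C for 30 days. V30N seedlings grew for 7 days, were held at 4 °C for 30 days and had 7 more days at 24 °C. V0 seedlings grew for 17 days and saw no cold. Days at 24 °C were 16 h light and 8 h dark. H3K27me3 had 1 library per condition. H3K4me3 had 1 library each for V30 and V30N and 2 for V0, which the labels describe as biological replication. V0 differs from V30 and V30N in age as well as in cold, and these cannot be told apart. V30 and V30N were equal in total age, but V30N seedlings were younger when the cold began. In pooled shoots, more cells with the mark and more mark per cell cannot be told apart either.

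The H3K27me3 values were not alike in make-up. Among values below 45, 47.2% in V30, 36.6% in V30N and 36.1% in V0 were multiples of a fixed step, of 0.653, 0.670 and 0.595. The best fit divided that step into 34 finer steps in V30 but into 48 in V30N and in V0. V30N against V0 is therefore the comparison between libraries with the same number of finer steps. Their fixed steps still differed, at 0.670 and 0.595, so the libraries need not be alike in other ways. For V30 the number of finer steps and the cold cannot be told apart. Both comparisons also share the single V0 library, so a gene's differences are not independent of each other.

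In plain signal, the members were modestly higher. The median ratio of deposited signal was 1.41 for V30 over V0, with a range of 1.22 to 2.40, and 1.37 for V30N over V0, with a range of 1.22 to 1.96. The signal had a median of 125 in V30, 124 in V30N and 90.6 in V0. All 100 members had their lowest signal in V0. The members ran from 39.2 to 782 in V30, from 40.2 to 694 in V30N and from 27.4 to 560 in V0. Of the 100 members, 5 had a V0 signal under 30, close to the lowest V0 value in the table, 27.3, beside 114 of all 6553 ranked genes. Under 40 were 19 of the members, beside 744 of all ranked genes. Low V0 values were thus more frequent among the members, and a low V0 value raises both differences.

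On the centred log2 scale with the pseudocount, V30 minus V0 had a median of 0.40 over the members, from 0.30 to 0.90, beside 0.03 over all ranked genes. V30N minus V0 had a median of 0.36, from 0.30 to 0.67, beside 0.01 over all ranked genes. Past 1.5-fold in V30 were 12 members, where 0.977% of all ranked genes passed. Past 1.5-fold in V30N were 4 members, where 0.107% of all ranked genes passed. The rule chose on these differences, so nothing follows from these counts. One gene, Bradi4g10630, passed 1.5-fold in both, and it was also the only one of all ranked genes (0.0153%). No member reached 2-fold in either condition, a size reached by 0.061% of all ranked genes in V30 and by none (0%) in V30N. Most members are therefore genes with a small gain in 2 libraries against 1.

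**Figure D1:**
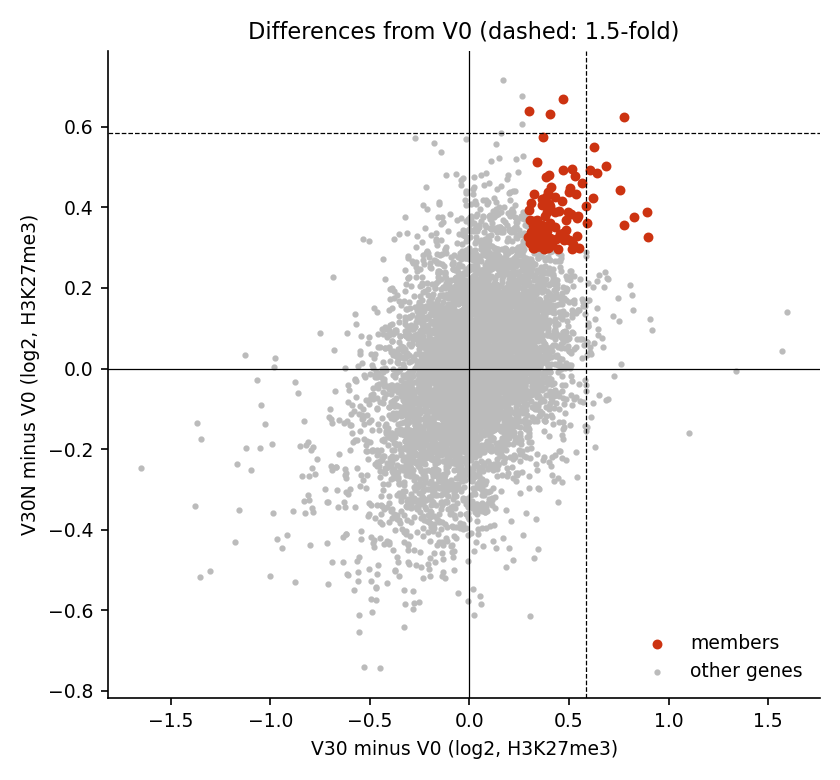
H3K27me3 differences from V0 for all 6553 ranked genes, with V30 on the horizontal and V30N on the vertical axis, both in log2. The 100 members (red) fill the upper right corner, and 1 of them lies beyond both dashed lines at 1.5-fold.

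Differences of this size were also found on the other side. In both conditions, 135 of the 6553 ranked genes were lower than V0 by at least the score of the last member, 0.30, beside the 100 members that were higher. No H3K27me3 condition had a second library to measure the error. The sole repeated condition was V0 of H3K4me3. There the log2 difference between the 2 libraries had an SD over genes of 0.38, and 36.4% of genes differed by 0.30 or more. That is another mark, with a pseudocount of 9.41 in place of 27.3, and 1 difference was counted in either direction, where the rule needs 2 gains. In V0 library 1 of H3K4me3, 1139 genes share a value exactly, against 74 in library 2. The spread between these libraries need not hold for H3K27me3.

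The gene with the highest score was Bradi4g10630, on chromosome 4 by its locus name, with a signal of 302 in V30, 273 in V30N and 170.1 in V0. Its differences were 0.78 in V30 and 0.62 in V30N. The next gene in the table, Bradi4g10640, had the third highest score, with 407 in V30, 359.7 in V30N and 249 in V0. Both neighbours thus stood well above V0 in both conditions and were somewhat lower in V30N than in V30. Bradi1g07037, the second by score, had 88.6 in V30, 84.0 in V30N and 49.6 in V0.

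Next came Bradi1g35647, with 102 in V30, 102 in V30N and 65.3 in V0, where V30 and V30N were nearly equal. Bradi4g30920 had 166 in V30, 153 in V30N and 103 in V0. Bradi4g26090 had 157 in V30, 140.0 in V30N and 93.8 in V0. For these genes the mark in V30N lay between V0 and V30 or level with V30. Bradi5g08297 had 108 in V30, 105 in V30N and 68.6 in V0. Bradi1g01377 had 111 in V30, 134 in V30N and 75.3 in V0, and it had the largest V30N difference of any member, 0.67. It was higher in V30N than in V30, as was Bradi2g00430, with 147 in V30, 152 in V30N and 102 in V0.

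Bradi1g24510 had 133 in V30, 124 in V30N and 84.0 in V0. Bradi2g26960 had 74.4 in V30, 71.9 in V30N and 46.3 in V0. Bradi3g17770 had 74.4 in V30, 55.6 in V30N and 34.5 in V0. On the log2 scale it had the widest gap between V30N and V30 among the 12, at -0.31. In 10 of the 12, V30N minus V30 was negative on the centred scale.

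**Figure D2:**
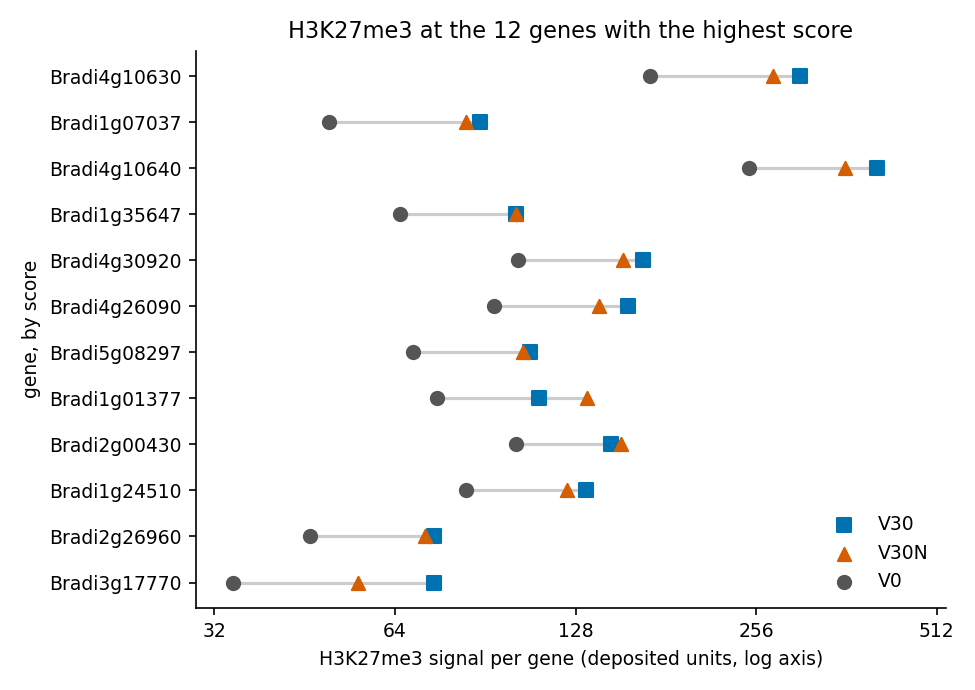
H3K27me3 signal per gene (log axis) at the 12 members with the highest score, with 1 library each for V30 (square), V30N (triangle) and V0 (circle). In every row the V0 point lies left of both others, as the rule requires. The V30N point lies clearly right of the V30 point at Bradi1g01377 and only slightly right of it at Bradi2g00430 (152 against 147).

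At the lower end, the score hardly separated members from the rest. The last members by score were Bradi3g32140 (675 in V30, 646 in V30N, 527 in V0), Bradi5g24240 (104, 109 and 82.7 in the same order) and Bradi4g43420 (181, 154 and 122). Just outside the rule stood Bradi4g11630, with 65.3 in V30, 50.9 in V30N and 37.2 in V0. Bradi1g30870 had 225 in V30, 204 in V30N and 164 in V0, and Bradi1g59680 had 283 in V30, 270.1 in V30N and 218 in V0. All 6 genes had a score that rounds to 0.30 or 0.29, so the number of members is set by the rule and by no gap in the data.

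How much of the V30 difference was found in V30N varied widely. The V30N difference was a median of 89.5% of the V30 difference, from 36.5% to 215%. It was at least as large as in V30 at 32 members and under 75% at 23. On the log2 scale, V30N minus V30 had a median of -0.04 over the members, from -0.57 to 0.34, beside -0.02 over all ranked genes. V30N lay within 0.1 of V30 at 61 members, where 33.2% of all ranked genes did. The rule favours genes whose V30 and V30N values are alike, since both must exceed V0. No member differed by 1.5-fold between V30N and V30, where 0.977% of all ranked genes were higher and 1.14% were lower in V30N.

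The extremes of this range were chosen after their values were seen. In 4 members under 50% of the V30 difference was found in V30N. Bradi3g51540 had 56.3 in V30N, 89.6 in V30 and 37.3 in V0. Bradi4g09790 had 573 in V30N, 782 in V30 and 441 in V0. Bradi4g05240 had 350.1 in V30N, 471 in V30 and 271 in V0, and Bradi4g05270 had 349 in V30N, 525 in V30 and 277 in V0. These 4 genes were far above V0 in V30 but lay nearer to V0 than to V30 in V30N, so they were kept high in part. At the other end, Bradi3g33070 had 68.4 in V30N, 47.3 in V30 and 34.9 in V0, with the larger of its differences from V0 in V30N. Bradi1g01370 had 71.8 in V30N, 56.3 in V30 and 37.5 in V0, and Bradi5g02900 had 159 in V30N, 132 in V30 and 99.0 in V0.

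The members came from all but the extremes of H3K27me3 level. By quartile of mean level over the 3 libraries, 18 members lay in the lowest, 35 in the second, 27 in the third and 20 in the highest. Their level percentiles ran from 7.29 to 95.3, with a median of 49.1. Level matters for the V30 comparison. In all ranked genes the median of V30 minus V0 was -0.06 in the lowest quartile and 0.19 in the highest, whereas V30N minus V0 had medians of -0.01 and 0.03. With the trend of each difference on level removed, 84 of the 100 members were still among the 100 highest scores.

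By locus name, 35 members were on chromosome 1, 15 on chromosome 2, 24 on chromosome 3, 19 on chromosome 4 and 7 on chromosome 5. The same shares over all ranked genes were 29.1%, 22.0%, 21.7%, 18.1% and 9.004%. In the table, which runs in locus order, 27 members stood next to another member, in 12 runs. There were 3 runs of 3 genes and 9 runs of 2. The 100 genes chosen by the mirror rule, with the lowest values of the larger difference, had 28 such genes, so this grouping was not particular to the members. Locus numbers were 10 or fewer apart in 13 of the 15 neighbouring pairs.

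The run of 3 with the highest score held Bradi1g01340, Bradi1g01370 and Bradi1g01377. Bradi1g01340 had 167 in V30, 165 in V30N and 129 in V0. It was nearly level between V30 and V30N, unlike the other two genes, which were higher in V30N. The second run held Bradi1g47330 (266 in V30, 264 in V30N, 205 in V0), Bradi1g47350 (123, 129 and 90.4) and Bradi1g47360 (70.4, 74.1 and 52.5). These 3 genes differed widely in signal but had V30 differences of 0.37, 0.39 and 0.33. In the third run, Bradi3g20980 had 282 in V30, 256.2 in V30N and 199 in V0. Bradi3g20990 had 107 in V30, 119 in V30N and 82.6 in V0, and Bradi3g21000 had 122 in V30, 128.3 in V30N and 95.7 in V0. Next to it Bradi3g21010, which is no member, had 116 in V30, 124 in V30N and 149.8 in V0.

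Among the runs of 2, Bradi4g10630 and Bradi4g10640 led. Bradi4g26100, next to Bradi4g26090, had 298 in V30, 261 in V30N and 189.8 in V0, and Bradi5g08290, next to Bradi5g08297, had 67.6 in V30, 57.4 in V30N and 37.6 in V0. The remaining 6 runs of 2 had V30 differences between 0.30 and 0.56.

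The genes beside the runs are no members because they missed the score of the rule, so a step down at the edge of a run is fixed by the rule. The median over the 12 runs was 0.47 for V30 minus V0 and 0.39 for V30N minus V0. One row before the runs it was 0.18 and 0.09, and one row after them 0.04 and 0.00. Of the 24 genes that flank the runs, 12 were above V0 in both conditions. Over all members, 169 genes that are no members stood directly beside one, with medians of 0.10 for V30 minus V0 and 0.04 for V30N minus V0. Of these, 46.7% were above V0 in both, beside 34.6% of all genes that are no members. The share was 41.8% at 2 rows away, 32.6% at 3, 39.3% at 5 and 36.7% at 10, with no steady decline.

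**Figure D3:**
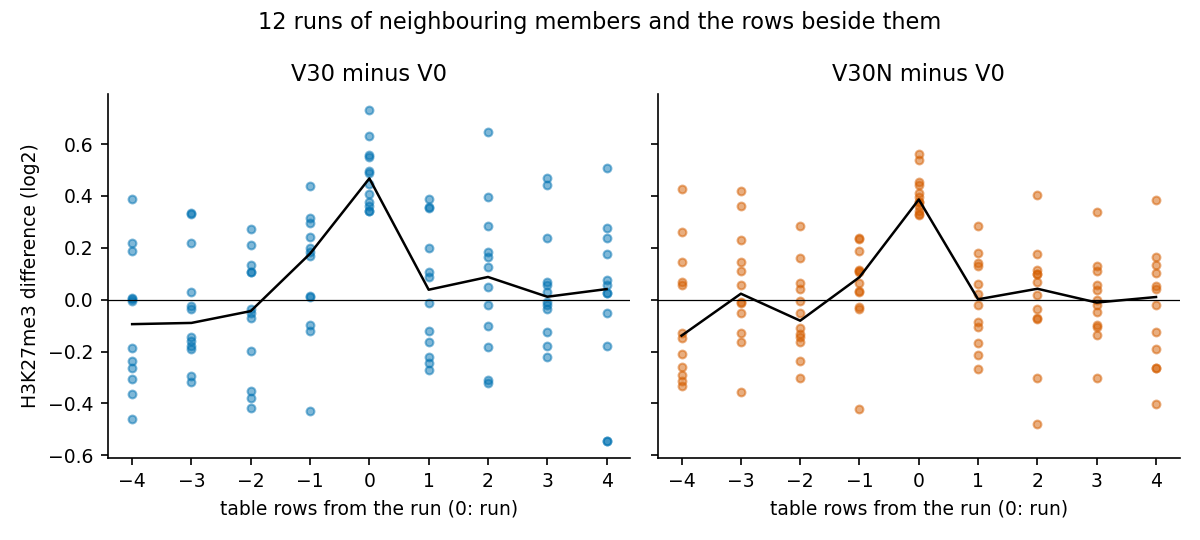
H3K27me3 difference from V0 (log2) at 12 runs of neighbouring members (position 0, the mean of the run) and at the table rows up to 4 before and after, for V30 (left) and V30N (right). Points are runs, the line is their median, which is 0.47 and 0.39 at the runs and 0.18 and 0.09 one row before them.

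None of the listed genes of known role was a member. Names were attached to these loci from published assignments. Of 7 flowering genes with H3K27me3 values, 1 was above V0 in both conditions: the florigen gene FT1 (Bradi1g48830), with 628 in V30, 604 in V30N and 565 in V0, at rank 929 by score. The MADS-box gene SOC1 (Bradi1g77020), a promoter of flowering, was 0.59 above V0 in V30 but at -0.15 in V30N, and FUL2 (Bradi1g59250), also of the MADS-box family, was at 0.37 and -0.11. The others on the list were below V0 in V30. VRN1 (Bradi1g08340) was at -0.55 in V30 and -0.61 in V30N, and FT2 (Bradi2g07070) at -0.49 and -0.60. VRN2L (Bradi3g10010) was at -0.17 and 0.01, and ELF3 (Bradi2g14290) at -0.06 and -0.25. Of 9 cold-response genes, CBF activators and ice recrystallization inhibition proteins, 0 were above V0 in both. The CBF genes were between -0.69 and -0.09 in V30 but between 0.06 and 0.23 in V30N. The ice recrystallization inhibition genes were between -1.38 and 0.15 in V30 and between -0.55 and -0.24 in V30N. Within each set the locus numbers lie close together, so the 9 genes need not be independent. Over all ranked genes, 35.6% were above V0 in both and 1.53% were members. For so few listed genes, 0 members is near the share of 1.53%. The 1 of 7 and 0 of 9 above V0 in both lie below the share of 35.6%, a gap that was not tested. No gene name or role is given here for the members themselves.

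H3K4me3 was not used by the rule. It had a value at 16 of the 100 members and at 28.6% of all ranked genes. Why a gene has a value or none is not given, so a value is not the same as presence of the mark. Genes with both marks are, in what follows, those with a value for each. Genes with low H3K27me3 had an H3K4me3 value more often, so the shares were set side by side within quartiles of H3K27me3 level. In the lowest quartile 6 of 18 members had a value (33.3%), against 42.6% of all ranked genes, and in the second 8 of 35 (22.9%), against 34.4%. In the third quartile it was 2 of 27 (7.41%), against 22.2%, and in the highest 0 of 20, against 15.1%. The members' share was thus lower in each quartile. Among the 100 genes of the mirror rule, 49 had an H3K4me3 value. These shares were not tested.

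**Figure D4:**
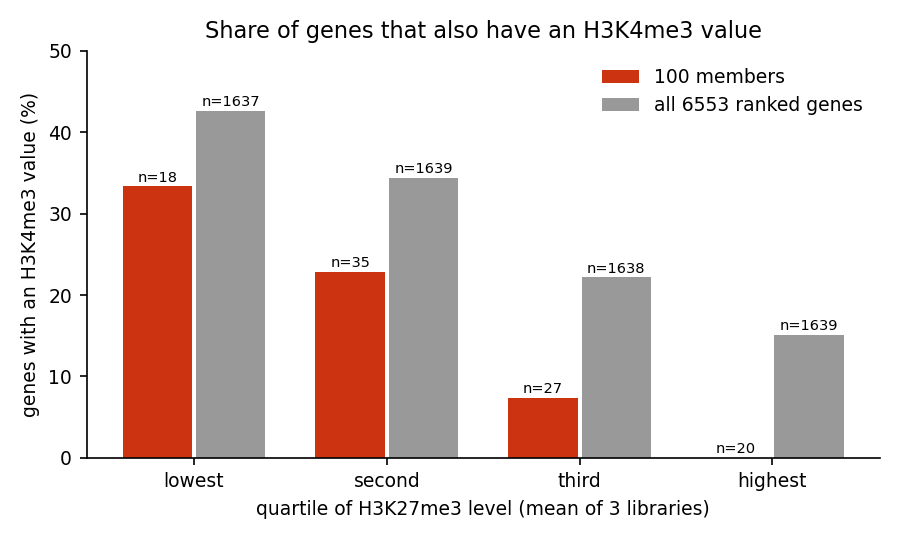
Percentage of genes with an H3K4me3 value, by quartile of H3K27me3 level, for the 100 members (red) and all 6553 ranked genes (grey). The number of genes stands over each bar, and the members' bar is lower in each quartile, from 33.3% against 42.6% in the lowest to 0 against 15.1% in the highest.

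At the 16 members with both marks, H3K4me3 did not pass limma's test anywhere. With Benjamini-Hochberg adjustment over 11752 genes, limma called 0 members and 0% of all genes, higher or lower, in any of the 3 comparisons. The smallest limma adjusted p of a member was 0.357 in V30 and 0.99996 in V30N, each compared with V0, and 0.488 in V30N compared with V30. At an unadjusted p under 0.05 limma had 1 member for V30 against V0, where 7.32% of all genes passed. It had 0 members for V30N against V0, where 1.03% of all genes passed, and 1 for V30N against V30, where 7% passed. The test rests on 1 residual degree of freedom, that between the V0 libraries.

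That 1 member was Bradi3g37030 in both cases. Its H3K4me3 signal was 22.9 in V30, 59.9 in V30N and 48.1 and 58.1 in the V0 libraries. V30 minus V0 was -0.83 (SE 0.26, limma adjusted p = 0.357) and V30N minus V30 was 0.87 (SE 0.30, limma adjusted p = 0.488). The V30 value is one that 1012 genes of that library share exactly, so it need not be a measured level. Its neighbour Bradi3g37040, also a member, had 50.6 in V30, 69.5 in V30N and 59.3 and 84.6 in the V0 libraries, with a value below both V0 libraries in V30. At both genes H3K27me3 was higher in V30 and V30N than in V0 (75.1 and 72.2 against 47.0 at Bradi3g37030, 76.4 and 70.3 against 48.2 at Bradi3g37040).

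Bradi2g36840 was the other member with low H3K4me3 in V30, at 33.8, with 59.4 in V30N and 53.6 and 60.2 in the V0 libraries (V30 minus V0 -0.50, SE 0.25, limma adjusted p = 0.760). The opposite was seen at Bradi3g03040, whose H3K4me3 level was at percentile 98.3 of all genes. It had 123 in V30, 93.1 in V30N and 86.7 and 100.6 in the V0 libraries (V30 minus V0 0.48, SE 0.24, limma adjusted p = 0.763). Bradi4g04530 had 13.9 in V30, 7.79 in V30N and 10.7 and 9.90 in the V0 libraries. Its differences from V0 were 0.36 in V30 and -0.31 in V30N, each with an SE of 0.30. These are values near the floor: its H3K4me3 level was at percentile 0.79 of all genes, and its V30N signal was below the pseudocount of 9.41. Bradi1g47360 had 49.97 in V30, 60.4 in V30N and 22.3 and 71.0 in the V0 libraries. The gap between its V0 libraries covers both other values.

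In V30N, the highest differences from V0 were at Bradi1g43120 (0.44, SE 0.32), Bradi3g17770 (0.43, SE 0.30) and Bradi1g47360 (0.36, SE 0.39). Bradi1g43120 had 53.8 in V30N, 40.3 in V30 and 22.3 and 49.5 in the V0 libraries. The value of 22.3 in V0 library 1 is shared by 1139 genes, so for Bradi1g43120 and Bradi1g47360 the V0 mean rests partly on a repeated value. Bradi3g17770 had 26.6 in V30N, 17.4 in V30 and 11.8 and 19.7 in the V0 libraries. The lowest differences in V30N, after Bradi4g04530, were at Bradi1g47450 (-0.23, SE 0.28) and Bradi5g22810 (-0.17, SE 0.26). Both were smaller than their SEs.

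Over the 16 members, the median H3K4me3 difference was 0.08 for V30 against V0, beside 0.04 over the 1872 genes with both marks, and -0.04 for V30N against V0, beside -0.03. The first turned to -0.036 and the second to 0.069 without centring of the libraries, so neither has a settled direction. With libraries centred, 6 members lay above both V0 libraries in V30 and 3 below both, where 36.6% and 31% of all genes did. In V30N, 4 lay above both and 5 below both, where 24% and 32.6% of all genes did. In the values as deposited the balance turned in each condition: 2 above and 5 below in V30 (20.1% and 41.5% of all genes), and 5 above and 1 below in V30N (33.7% and 17.4%).

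**Figure D5:**
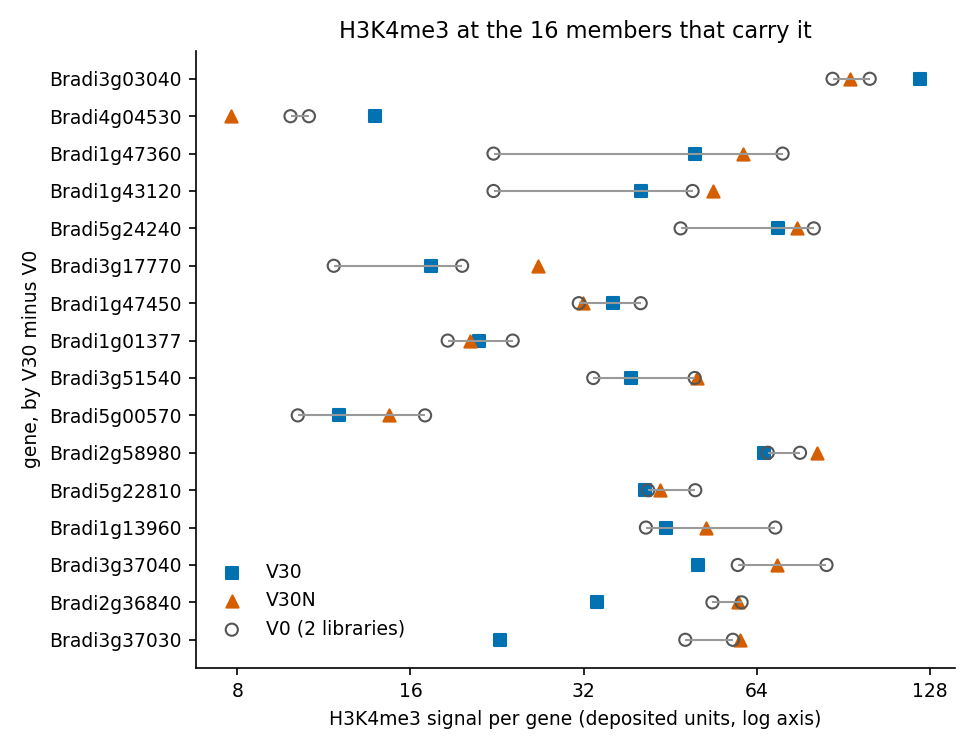
H3K4me3 signal per gene (log axis) at the 16 members with both marks, for V30 (square), V30N (triangle) and the 2 V0 libraries (open circles joined by a line). Genes are ordered by V30 minus V0, from 0.48 at the top to -0.83 at the bottom, and at 9 genes the V30 point falls between the V0 circles in these deposited values, before centring.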

How the data were processed

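The authors deposited 1 signal value per gene and library for 7 ChIP-seq libraries, under an abbreviated column name that no header explains. The aligner named in the submitters' processing notes is Bowtie2 2.1.0. Build, gene annotation, input correction and scaling are not given in the sources used here. Low values fell on steps, but not nearly all of them, so reads could not be recovered. Depth is therefore unknown, and intervals for counting error were not formed.

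The members and lists were chosen with earlier results of these data known. The pseudocount was the 1st percentile of each mark's values, 27.3 for H3K27me3 and 9.41 for H3K4me3. It understates the change of low genes. Libraries were centred on their median. Centring added 0.04 to V30 minus V0 and 0.02 to V30N minus V0 of H3K27me3. The rule leaves out 1 gene, which is not reported here.

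For H3K4me3, limma 3.58.1 (R 4.3.3, eBayes, trended prior variance) was run on 11752 genes in 4 libraries, at an adjusted p under 0.05. The single libraries of V30 and V30N were taken to vary like those of V0. P-values measure only the spread between the V0 libraries, which may be technical. The fit was also run on simulated data with an equal spread for all genes, taken from genes without repeated values. That run does not cover the repeated values of the real libraries. Named genes were the 12 highest scores, the first 6 runs of neighbours, the 3 highest and lowest H3K4me3 differences from V0, listed loci, and the genes around the limit of the rule. Genes are known by locus identifier. None matched the reference gene table used here, so families, promoters and sequences were not analysed. Python 3.11.15 was used.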

Additional observations from a re-analysis of the deposited data

How the results depend on the processing

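Of the 100 members, 93 and 84 were among the 100 highest scores with the pseudocount halved or doubled. The number was 94 without centring, 86 with quantile normalization and 84 with the trend on level removed. Without the lowest 25% of genes by level it was 82, since this removes the other members and cannot push out any that remain. In all 6 settings 58 were kept, of the 82 that could be. The lowest-placed member was at rank 1115 with quantile normalization and at rank 1289 with the trend on level removed. Counts past 1.5-fold depended on the pseudocount: 23 members in V30 and 2 in both conditions with it halved, and 6 in V30, 0 in V30N and 0 in both with it doubled. Without the lowest 25% of genes, 2 members passed in V30N, and at 2-fold 0 passed in both. Without centring, the median of V30N minus V30 for H3K27me3 was -0.025, and those for H3K4me3 were -0.036 in V30 and 0.069 in V30N, each compared with V0, and 0.21 in V30N compared with V30. In the values as deposited, an alternative added after seeing the data, 2 members lay above and 5 below both V0 libraries of H3K4me3 in V30, and 5 above and 1 below in V30N. The limma counts of members were the same in each setting in which the test could be run. Over all genes, where the main fit gave 0, limma called 63 genes without centring in V30 compared with V0. In the same setting it called 3 in V30N compared with V0 and 34 in V30N compared with V30. With centring kept but without genes at repeated values, it called 30, 1 and 30 in the same order. The 0 over all genes thus depended on the setting. With 1 V0 library left out no residual degree of freedom remained, and the median H3K4me3 difference was 0.03 to 0.11 in V30 and -0.05 to 0.00 in V30N, each compared with V0. No paired analysis was possible because no second library exists outside V0 of H3K4me3. H3K27me3 has 1 library per condition, so no member's gain has a replicate check.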

Other observations

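Members also stood close together in a pair of stretches that are not single runs. Both were chosen after their values were seen. On chromosome 1, 5 of the 7 measured genes from Bradi1g47330 to Bradi1g47460 were members. Of the genes between them, Bradi1g47400 had 73.3 in V30, 87.8 in V30N and 68.4 in V0, and Bradi1g47427 had 307 in V30, 263 in V30N and 274 in V0. Bradi1g47400 thus leaned the same way as its neighbours, while Bradi1g47427 was below V0 in V30N.

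On chromosome 4, Bradi4g05240 and Bradi4g05270 enclosed a pair of genes that missed the rule. Bradi4g05250 had 479 in V30, 351 in V30N and 297 in V0, and Bradi4g05260 had 558 in V30, 403 in V30N and 345 in V0. All 4 neighbours were between 0.68 and 0.90 above V0 in V30 and between 0.23 and 0.36 above V0 in V30N, on the log2 scale.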
